A study of Mus musculus with 15 samples.

Results

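8 genes that mark endothelial cells, the cells that line blood vessels, were followed through 3 stromal cell fractions of the mouse heart. The list had 9 genes, taken by name, and 8 of them had a value among 13513 named genes. These were the junction gene Cdh5, the surface sialomucin gene Emcn, the receptor genes Tek, Tie1 and Kdr, the receptor phosphatase gene Ptprb, the clotting protein gene Vwf and the fatty acid binding protein gene Fabp4. Egfl7, also on the list, has no value under its name and was not analysed here.

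Affymetrix arrays measured RNA of wild-type C57BL/6 mice aged 8 to 12 weeks, with 5 arrays per group and 15 in all. CF are cardiac fibroblasts of unstressed hearts, aCF are activated cardiac fibroblasts, and EpiSC are stromal cells of the epicardium. The aCF and EpiSC cells came from hearts in which infarction had been induced 5 days earlier. Hearts were digested with collagenase, and EpiSC were freed from the surface of infarcted hearts by shaking. Per the labels' protocols, CF and aCF are what remained of the ventricles once a slow spin and strainers had removed heart muscle cells, and no step that removes endothelial cells is given in the sources used here. No sham-operated group is named, and EpiSC and aCF differ in isolation as well as in cell type, so these effects cannot be told apart.

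Every gene name rests on an inferred displacement between identifiers and values that no source states. The value of an identifier stands 6900 rows further down the table, and 3 rows more for chromosomes 10 and 11. Each value is a log2 expression from which the authors had taken the median of that probe set over the 15 arrays. Differences between groups can therefore be read, whereas the level of a gene, its signal over background and any order of levels between genes cannot. In bulk samples, fewer cells of a type and less RNA per cell cannot be told apart.

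Endothelial cells hold together through adherens junctions built on VE-cadherin, the product of Cdh5. Their survival and sprouting depend on VEGF acting through VEGFR2, the product of Kdr, and their quiescence on angiopoietins acting through Tie2, the product of Tek. Tie1 is the partner of Tie2, and VE-PTP, the product of Ptprb, removes phosphate from Tie2, VEGFR2 and the junction complex. Capillary endothelium of the heart also takes up fatty acids for the muscle and is rich in Fabp4.

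Endothelial genes were lowest in EpiSC. In the means over the arrays of a group, all 8 genes lay lower in EpiSC than in CF and lower in EpiSC than in aCF. Cdh5 fell by 2.88 ± 0.13 on the log2 scale (SE, n = 5 arrays per group) in EpiSC against CF, a 7.34-fold difference. Ptprb fell by 3.09 ± 0.15 in EpiSC against aCF, an 8.49-fold difference. In aCF against CF 7 genes lay lower and Ptprb lay higher, and none of the 8 passed the Bonferroni threshold.

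Each comparison was fitted with limma over all 22206 rows of the table, with a threshold of 0.05 and Bonferroni adjustment, the correction that the series design states. EpiSC against CF is not named in the series design and is secondary, added to complete the order of the groups. In EpiSC against aCF 1 of 8 genes passed, against 0.666% of all rows. In aCF against CF 0 of 8 passed, against 1.53% of all rows. With no adjustment, 1 gene had p under 0.05 and lay higher and 5 lay lower, against 13.6% and 17.6% of all rows. In EpiSC against CF 1 of 8 passed, against 2.91% of all rows. With Benjamini-Hochberg adjustment in the same limma fits, 3, 4 and 7 genes passed in these comparisons, against 9.61%, 18.1% and 32.2% of all rows. The median log2 difference of the 8 genes was -0.34 in EpiSC against aCF, -0.48 in aCF against CF and -0.97 in EpiSC against CF. Over all named genes it was 0.026, 0.00 and 0.030. The 3 comparisons share their arrays and are not independent of each other.

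**Figure D1:**
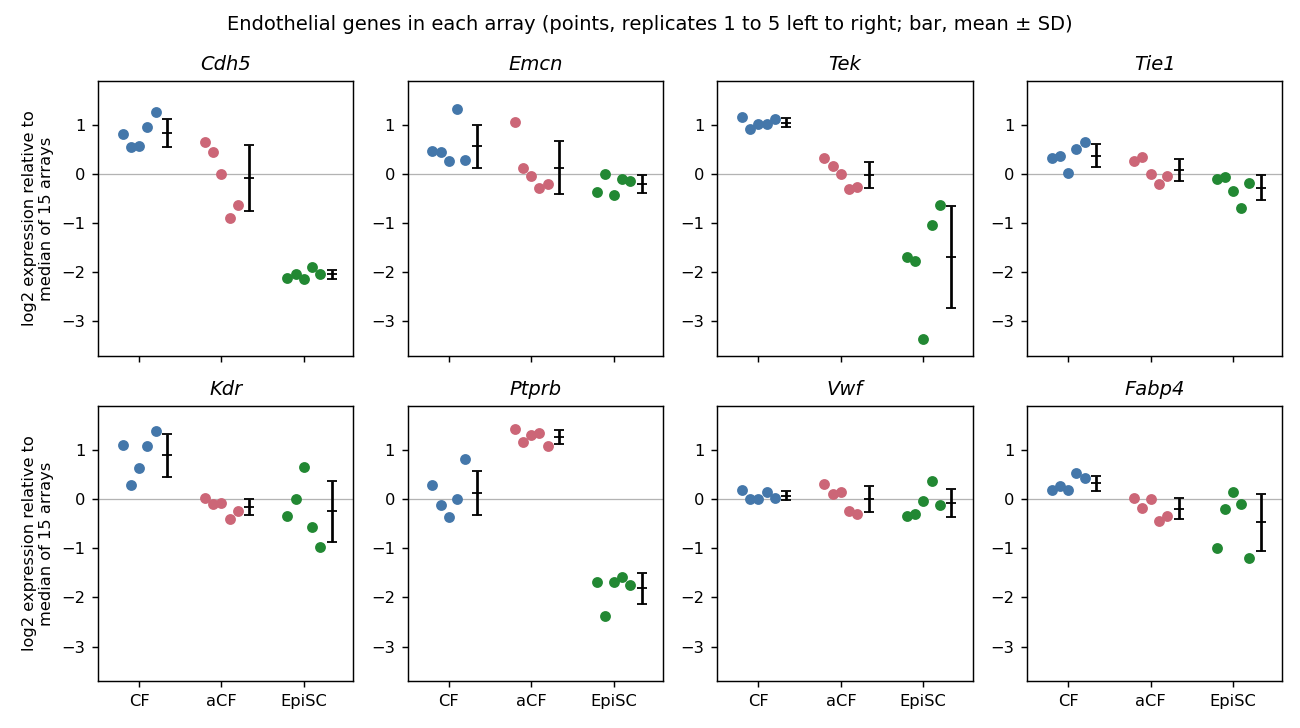
Log2 expression of 8 endothelial genes relative to the median of the 15 arrays (y axis) in each array of CF, aCF and EpiSC (x axis); points are arrays and bars are means with SD of 5 arrays. Cdh5 lies between -2.13 and -1.89 in EpiSC and between 0.56 and 1.26 in CF, Ptprb is highest in aCF, and Vwf overlaps between all groups.

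Cdh5 encodes VE-cadherin, the adhesion molecule of endothelial junctions. Its values were 0.82, 0.56, 0.58, 0.96 and 1.26 in CF1 to CF5. They were 0.66, 0.45, 0.00, -0.90 and -0.63 in aCF1 to aCF5 and -2.11, -2.03, -2.13, -1.89 and -2.04 in EpiSC1 to EpiSC5. All EpiSC arrays lay below every array of the other groups and within a span of 0.24, while the aCF arrays spread over 1.56, aCF4 and aCF5 being the lowest. The fall in EpiSC against CF had an adjusted p = 9.54e-06 in limma's test with Bonferroni adjustment and ranked 31 of all rows by p. Against aCF the difference of -1.96 ± 0.27 did not pass (adjusted p = 0.583). Without both aCF4 and aCF5, a set that earlier results of these data had singled out, that difference was -2.41 and passed (limma adjusted p = 0.00277). CF and aCF overlapped (difference in aCF -0.92 ± 0.29, limma adjusted p = 1), and without aCF4 and aCF5 it was -0.47.

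Emcn encodes endomucin, a sialomucin of capillary and venous endothelium. The CF arrays had 0.48, 0.45, 0.27, 1.34 and 0.30, the aCF arrays 1.06, 0.12, -0.04, -0.28 and -0.19, and the EpiSC arrays -0.36, 0.00, -0.42, -0.09 and -0.14. All CF arrays lay above all EpiSC arrays, and the aCF arrays reached into both. CF4 and aCF1 were high in their groups. The difference of -0.77 ± 0.19 in EpiSC against CF did not pass after Bonferroni adjustment (limma adjusted p = 1; Benjamini-Hochberg adjusted p = 0.012).

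Tek and Tie1 encode the receptor pair of the angiopoietin system, and the identifiers place both on chromosome 4. Tek was nearly constant in CF, with 1.17, 0.93, 1.02, 1.03 and 1.12. It was 0.33, 0.16, 0.00, -0.30 and -0.25 in aCF, and -1.69, -1.76, -3.35, -1.04 and -0.62 in EpiSC. The groups were ordered CF, aCF, EpiSC with no overlap between any of them. The EpiSC arrays spread over 2.73, and Tek varied more within groups than 99.6% of named genes. In aCF against CF Tek differed by -1.07 ± 0.12 and did not pass (limma adjusted p = 0.0655). It passed without aCF1 (limma adjusted p = 0.0171), the only one of 10 single omissions after which it did (p up to 0.366). In EpiSC against CF it differed by -2.75 ± 0.41, with a 95% interval from -3.67 to -1.83, and did not pass (limma adjusted p = 1). Without EpiSC3, the lowest array, that difference was -2.33 and passed (limma adjusted p = 0.0316), the only one of 10 single omissions after which it did.

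Tie1 took the same order with smaller steps. Its values were 0.34, 0.37, 0.03, 0.52 and 0.65 in CF, 0.28, 0.35, 0.00, -0.19 and -0.04 in aCF and -0.10, -0.06, -0.35, -0.69 and -0.17 in EpiSC. All CF arrays lay above all EpiSC arrays, and aCF overlapped both. The difference in EpiSC against CF was -0.66 ± 0.14 (limma Bonferroni-adjusted p = 1; Benjamini-Hochberg adjusted p = 0.00602). Whether Tie1 and Tek differed by unequal amounts was not tested, since probe sets can differ in how far their signal follows RNA.

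Kdr encodes VEGFR2, the main signalling receptor for VEGF on endothelium. The CF arrays had 1.10, 0.29, 0.64, 1.08 and 1.40, the aCF arrays 0.03, -0.09, -0.07, -0.41 and -0.23, and the EpiSC arrays -0.33, 0.00, 0.65, -0.57 and -0.98. Every CF array lay above every aCF array, with a difference of -1.06 ± 0.19 in aCF (limma Bonferroni-adjusted p = 1; Benjamini-Hochberg adjusted p = 0.00323). EpiSC and aCF overlapped, with a difference of -0.09 and a 95% interval from -0.66 to 0.48. The EpiSC arrays spread over 1.63, and EpiSC3, the lowest EpiSC array for Tek, was the highest for Kdr.

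Promoter windows are shown for these 3 receptor genes, as the members of the list that encode receptor tyrosine kinases. The RefSeq table (GRCm38.p6) held windows for 4 of the 8 genes, which were Tek, Tie1, Kdr and Emcn. Each runs from 250 bases before to 50 bases after the start set for the window, 5′ to 3′ on the strand of the gene. That start is not always the outer end of the annotated gene, which is at 94739086 for Tek and, outside the window, at 75979072 for Kdr. Capitals mark the ETS core AGGAA on either strand, read as TTCCT on the opposite one, which is the core bound by the ETS factors that act in endothelium.
Tek, chr4:94739039-94739338, plus strand: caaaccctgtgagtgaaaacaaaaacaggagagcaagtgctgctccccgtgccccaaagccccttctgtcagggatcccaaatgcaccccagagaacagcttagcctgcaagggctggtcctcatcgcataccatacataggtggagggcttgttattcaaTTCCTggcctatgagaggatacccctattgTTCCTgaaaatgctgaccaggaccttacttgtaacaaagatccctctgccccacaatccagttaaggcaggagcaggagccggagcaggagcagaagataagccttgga
Tie1, chr4:118489800-118490099, minus strand: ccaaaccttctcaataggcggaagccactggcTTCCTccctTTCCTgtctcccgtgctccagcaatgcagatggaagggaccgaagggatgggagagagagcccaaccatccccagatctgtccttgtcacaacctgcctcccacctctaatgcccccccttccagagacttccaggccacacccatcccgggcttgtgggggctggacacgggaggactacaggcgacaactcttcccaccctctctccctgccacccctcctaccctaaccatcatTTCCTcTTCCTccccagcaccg
Kdr, chr5:75978406-75978705, minus strand: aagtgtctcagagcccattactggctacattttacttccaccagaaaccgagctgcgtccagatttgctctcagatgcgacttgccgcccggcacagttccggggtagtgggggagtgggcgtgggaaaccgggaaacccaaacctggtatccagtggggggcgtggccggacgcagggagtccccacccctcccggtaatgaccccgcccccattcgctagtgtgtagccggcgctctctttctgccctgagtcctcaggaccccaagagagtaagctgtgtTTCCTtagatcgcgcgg
The ETS core occurred 2 times in the Tek window, 4 times in Tie1, 1 time in Kdr and 6 times in Emcn. At least 1 match was present in 66.7% of all 32851 windows, which had 1.2 on average. The GATA motif AGATAA was found 1 time in the Tek window and in 11.2% of all windows, and the GC box CCGCCC 2 times in Kdr and in 35.7% of all windows. The forkhead motif TGTTTAC (3.65% of windows) and the TATA box TATAAA (13.6%) matched none of the 4 windows. All motifs were read on both strands.

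Ptprb encodes VE-PTP, which restrains Tie2 signalling, and it took another order than its substrates. Its values were 0.30, -0.12, -0.36, 0.00 and 0.83 in CF, 1.44, 1.16, 1.31, 1.35 and 1.09 in aCF, and -1.69, -2.38, -1.68, -1.59 and -1.74 in EpiSC. The groups were ordered aCF, CF, EpiSC with no overlap, and the aCF arrays lay within 0.35, aCF4 and aCF5 included. The fall in EpiSC against aCF had an adjusted p = 1.91e-05 in limma's test with Bonferroni adjustment and ranked 2 of all rows by p. In aCF against CF Ptprb differed by 1.14 ± 0.19 (limma adjusted p = 1). It passed without CF5, the highest CF array (1.31, limma adjusted p = 0.048), the only one of 10 single omissions after which it did. In EpiSC against CF it differed by -1.95 ± 0.22 and did not pass (limma adjusted p = 0.105).

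Ptprb lies on chromosome 10, where the pairing of names rests on the extra displacement of 3 rows, so its name is less secure than those of the other 7 genes. That displacement gave the best of 21 fits for 3 cell cycle genes of chromosomes 10 and 11. Markers of pericytes and smooth muscle, the mural cells that wrap vessels, were on average highest in aCF, as Ptprb was. The mean over the 14 measured mural genes ranged from 0.387 to 0.669 in the aCF arrays, from -0.655 to -0.056 in CF and from -0.802 to -0.323 in EpiSC. The mural genes did not go one way in aCF against CF, where 10 lay higher, led by Cnn1 (2.98), Rgs4 (2.38) and Tagln (2.36), and 4 lay lower, which were Abcc9 (-0.62), Heyl (-0.33), Vtn (-0.30) and Kcnj8 (-0.30). The pericyte gene Rgs5 differed by 1.13 ± 0.25 in aCF against CF (limma adjusted p = 1) and fell by 3.58 ± 0.21 in EpiSC against aCF (limma adjusted p = 0.000162). In EpiSC against aCF 11 mural genes lay lower, against 44.0% of all named genes, and 3 lay higher, which were Des (1.68), Steap4 (0.92) and Cnn1 (0.086). In EpiSC against CF 9 lay lower, against 44.6% of all named genes, and 5 lay higher, led by Cnn1 (3.06), Des (2.69) and Tagln (1.79). The part of mural cells in the Ptprb result was not tested.

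**Figure D2:**
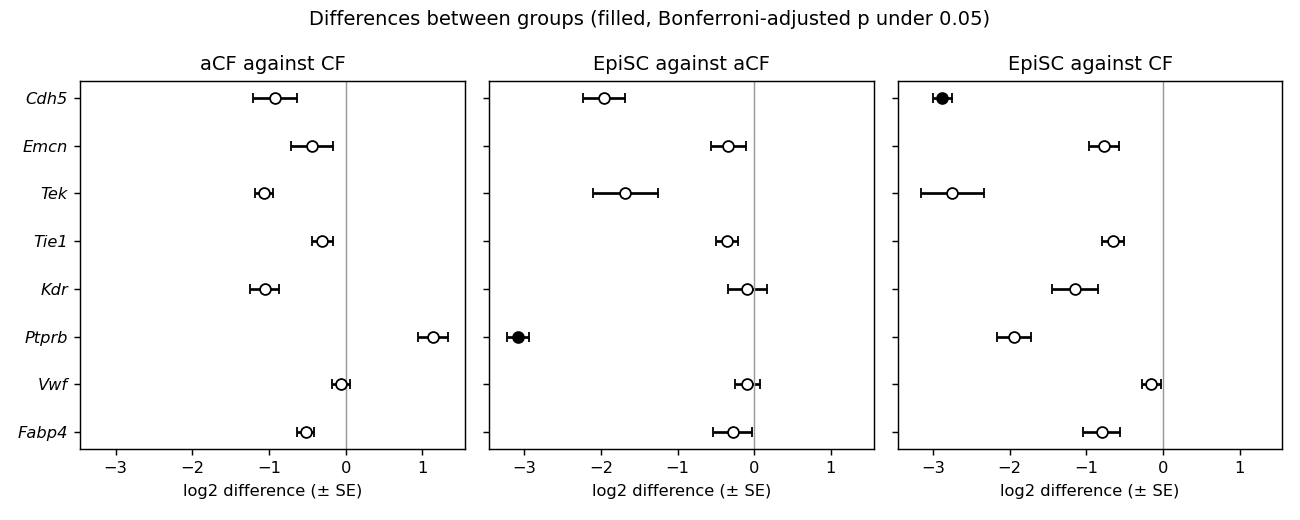
Log2 difference of 8 endothelial genes (x axis, points with SE) in aCF against CF, EpiSC against aCF and EpiSC against CF; filled points passed Bonferroni adjustment in limma. Ptprb is the 1 gene right of 0 in aCF against CF (1.14), and Vwf lies near 0 in every panel (-0.064, -0.088 and -0.15).

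Vwf encodes von Willebrand factor, which endothelial cells and platelets store. Its values were 0.20, 0.00, 0.00, 0.14 and 0.03 in CF, 0.32, 0.11, 0.16, -0.24 and -0.30 in aCF and -0.33, -0.30, -0.03, 0.38 and -0.11 in EpiSC. The groups overlapped in every comparison, and the 95% intervals ran from -0.45 to 0.27 for EpiSC against aCF, from -0.33 to 0.20 for aCF against CF and from -0.43 to 0.13 for EpiSC against CF. Whether the probe set was above background cannot be read from centred values. Genes of platelets and megakaryocytes lay on average in the opposite order to the endothelial genes. The mean over 12 measured genes, Vwf among them, was 0.587 to 1.11 in EpiSC arrays, -0.038 to 0.006 in aCF and -0.42 to -0.283 in CF. The step from CF to aCF in that mean was not general: the median difference of the 12 genes was 0.061, with 7 above 0 and 5 below. The 2 that passed in limma, against 1.53% of all rows, were Selp (2.88) and Thbs1 (1.10), which other cells express too. The call of Thbs1 (limma adjusted p = 0.0381) was lost in 8 of 10 omissions of single arrays (p up to 0.213). The platelet chemokine gene Ppbp was higher by 3.20 ± 0.22 in EpiSC against CF (limma adjusted p = 0.000823). The part of platelet RNA in the Vwf values was not tested.

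Fabp4 encodes a fatty acid binding protein of capillary endothelium, adipocytes and macrophages. Its values were 0.20, 0.27, 0.20, 0.54 and 0.44 in CF, 0.03, -0.18, 0.00, -0.45 and -0.34 in aCF and -1.0, -0.20, 0.14, -0.10 and -1.19 in EpiSC. All CF arrays lay above all arrays of both infarct groups, which overlapped with each other. The difference in aCF against CF was -0.52 ± 0.11 (limma Bonferroni-adjusted p = 1; Benjamini-Hochberg adjusted p = 0.00826). EpiSC1 and EpiSC5 were the low EpiSC arrays. The mean over 10 adipocyte genes, Fabp4 among them, was 0.143 to 0.266 in CF arrays, -0.267 to 0.05 in aCF and -0.414 to -0.24 in EpiSC. In EpiSC against CF 6 of these 10 lay lower and 4 higher, from Cd36 (-3.40), Lipe (-0.87), Pnpla2 (-0.62) and Pparg (-0.58) to Plin1 (-0.01), Lep (0.10), Cidec (0.39) and Acvr1c (0.41), and Cd36 was the 1 that passed in limma. Over 16 macrophage genes the mean was -0.191 to -0.037 in CF, 0.099 to 0.32 in aCF and -0.171 to -0.078 in EpiSC. The part of either cell type in the Fabp4 differences was not tested.

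Counted by overlap, 3 of the 8 genes had all EpiSC arrays below all aCF arrays, which was so for 4.73% of all rows. In aCF against CF 3 genes, Tek, Kdr and Fabp4, had all aCF arrays below all CF arrays, against 6.84% of all rows, and Ptprb had all above, against 7.88%. In EpiSC against CF 6 genes, all but Kdr and Vwf, had all EpiSC arrays below all CF arrays, against 11.8% of all rows.

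Within groups the endothelial genes varied more than most genes. Their SD within groups ranged from 0.232 for Vwf to 0.622 for Tek, and the median over named genes was 0.154. The deviations of the arrays from the means of their groups correlated between genes with a median of 0.299 over 28 pairs of genes (15 arrays, described with no test), and 23 pairs were above 0. Cdh5 followed the mean of the other 7 genes most closely (0.888), Emcn and Vwf came next (0.555 and 0.58), and Tek did not follow it (-0.009). The highest pair was Kdr and Fabp4 (0.674) and the lowest was Tek and Kdr (-0.659). The mean over the 8 genes was 0.519, 0.26 and 0.17 in aCF1 to aCF3 and -0.178 and -0.111 in aCF4 and aCF5, an order that Ptprb did not share. The points share arrays, so any feature of a whole array enters each correlation.

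**Figure D3:**
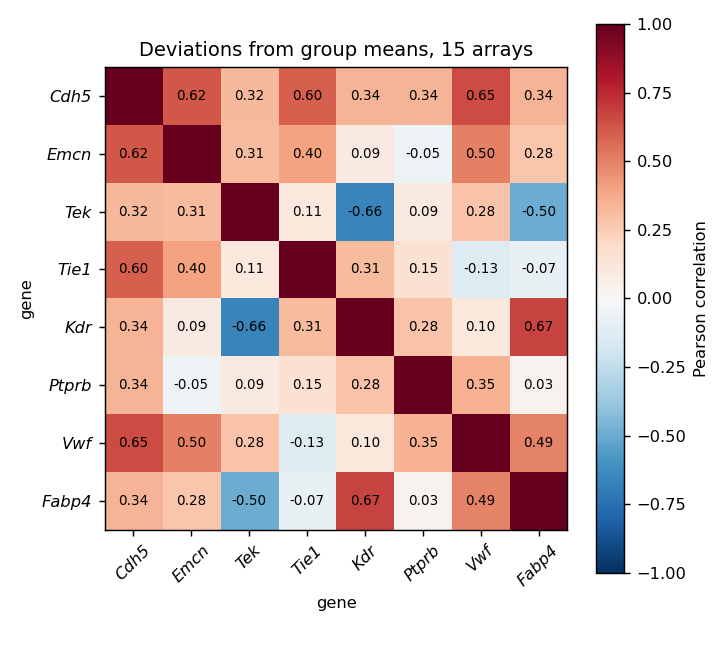
Pearson correlation (colour and printed value) between 8 endothelial genes (both axes) of their deviations from group means over 15 arrays. Cdh5 is above 0 with every other gene, while Tek is below 0 with Kdr (-0.66) and Fabp4 (-0.50).

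The genes whose deviations followed the mean of the 8 most closely were Aplnr, the apelin receptor of endothelium (Pearson correlation 0.891 over 15 arrays), then Lrrc61 (0.88), Cyp3a57 (0.879) and Gpr174 (0.875). Npb (0.869), Setmar (0.845), the Notch ligand gene Dll4 of arterial and sprouting endothelium (0.795) and 1700074P13Rik (0.792) completed the 8 highest. Aplnr differed by -0.83 in EpiSC against CF and by -0.05 in aCF against CF, and Dll4 by -0.65 and -0.44, none past the threshold (limma adjusted p = 1 for each).

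Most other endothelial markers also lay lower in EpiSC. Of 18 measured, 15 lay lower in EpiSC than in aCF, against 44.0% of all named genes. In EpiSC against CF 13 lay lower, against 44.6%, and in aCF against CF 13, against 6759 of the 13513. The shares of all rows past Bonferroni adjustment given above, 0.666%, 1.53% and 2.91%, are the background of the calls in this list and the next ones. For p under 0.05 with no adjustment, the background is 12.0% of all rows higher and 11.9% lower in EpiSC against aCF, 13.6% and 17.6% in aCF against CF, and 19.5% and 23.1% in EpiSC against CF. After Bonferroni adjustment 1 rose and 0 fell in EpiSC against aCF, 0 passed in aCF against CF in limma (with no adjustment, p was under 0.05 for 2 higher and 7 lower), and 2 fell and 0 rose in EpiSC against CF. The adhesion receptor gene Adgrl4 fell by 1.96 ± 0.14 in EpiSC against CF (limma adjusted p = 0.00146). Calcrl, the receptor for adrenomedullin, fell by 2.21 ± 0.19 (limma adjusted p = 0.0077), a call lost without CF1, CF3, CF4 or CF5 (p up to 0.055). The sphingosine phosphate receptor gene S1pr1 went the other way and rose by 1.23 ± 0.10 in EpiSC against aCF (limma adjusted p = 0.004), a call lost without both aCF4 and aCF5 (0.158). In EpiSC against CF 5 of the 18 lay higher, led by S1pr1 (1.14) and the endothelial adhesion gene Esam (0.75), and neither passed. Esam also lay higher in EpiSC against aCF (0.45) and in aCF against CF (0.30). The mean over these 18 genes was 0.071 to 0.322 in CF arrays, -0.09 to 0.156 in aCF and -0.337 to -0.256 in EpiSC.

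**Figure D4:**
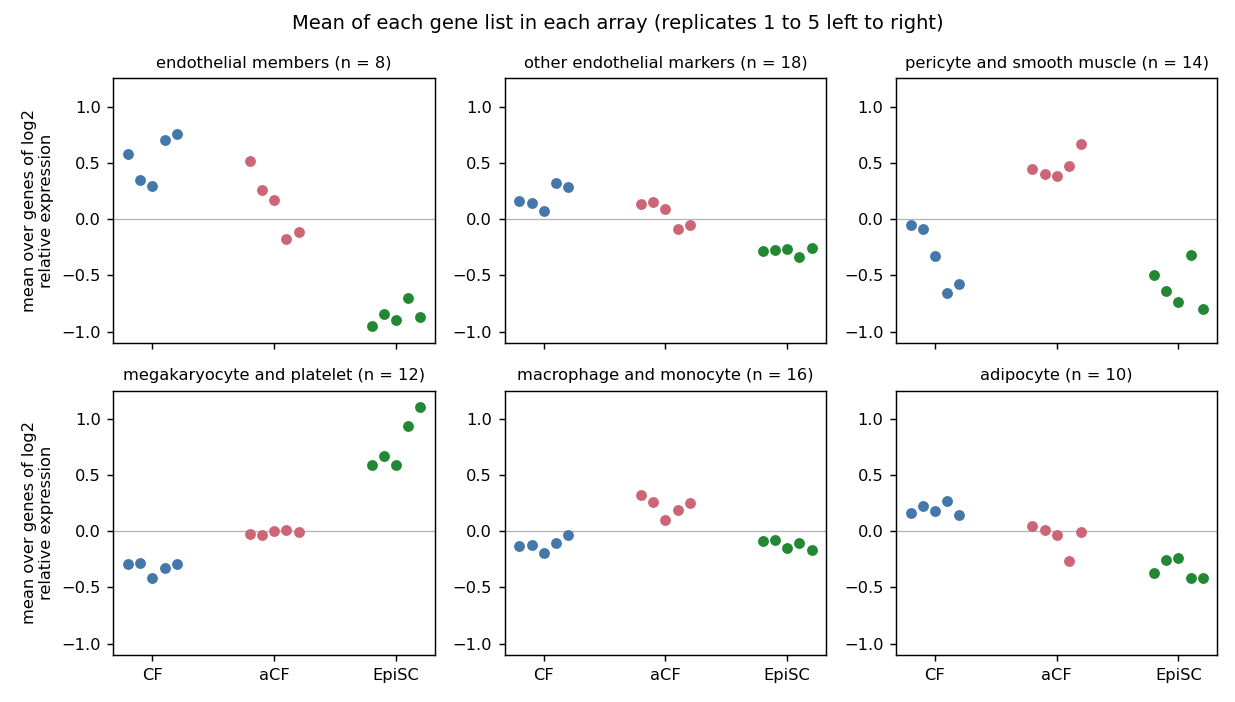
Mean log2 relative expression over the genes of 6 lists (y axis) in each array of CF, aCF and EpiSC (x axis); n is the number of genes measured, and a gene can stand in several lists. Endothelial genes are lowest in EpiSC, mural genes are highest in aCF (0.387 to 0.669), and platelet genes are highest in EpiSC (0.587 to 1.11).

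Ligands and receptors of the VEGF, angiopoietin and apelin systems did not move one way. Of 16 measured, Ptprb, Tek, Tie1, Kdr and Aplnr included, 1 rose and 2 fell in EpiSC against aCF, 1 rose and 0 fell in aCF against CF, and 1 rose and 1 fell in EpiSC against CF. Apln, the ligand of Aplnr, rose by 2.98 ± 0.23 in EpiSC against CF (limma adjusted p = 0.00274). It also rose by 2.38 ± 0.23 against aCF (limma adjusted p = 0.0206), a call lost in 6 of 10 omissions of single arrays (p up to 0.13). Vegfd, a ligand of VEGFR3, rose by 1.45 ± 0.12 in aCF against CF (limma adjusted p = 0.00338), a call lost without both aCF4 and aCF5 (0.141). Vegfd and Ptprb were the 2 genes of this list that fell in EpiSC against aCF, Vegfd by 1.02 ± 0.10 (limma adjusted p = 0.028), a call lost in 9 of 10 omissions of single arrays (p up to 0.174). The angiopoietin-like gene Angptl1 fell by 1.74 ± 0.18 in EpiSC against CF (limma adjusted p = 0.0301), a call lost in 8 of 10 omissions (p up to 0.193). The Tie2 ligand gene Angpt2 lay higher in every aCF array than in every CF array (0.95 ± 0.14) and did not pass (limma adjusted p = 1). Flt1, which encodes VEGFR1, differed by -0.31 in EpiSC against CF and by -0.26 in aCF against CF (limma adjusted p = 1 for each).

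Transcription factors of endothelium had 0 of 19 past the threshold in EpiSC against aCF in limma (with no adjustment, p was under 0.05 for 1 higher and 8 lower, against 12.0% and 11.9% of all rows). There were 0 in EpiSC against CF (3 higher and 10 lower, against 19.5% and 23.1% of all rows) and 1 in aCF against CF. The ETS family genes Ets1 and Fli1 differed by -1.07 and -0.72 in EpiSC against CF and by -0.80 and -1.07 in EpiSC against aCF (limma adjusted p = 0.276 for Fli1 against aCF and 1 otherwise). Elk3 and Etv2, of the same family, differed by 0.45 and 0.11 in EpiSC against CF, where all EpiSC arrays lay above all CF arrays for Elk3. In EpiSC against aCF they differed by -0.18 and 0.068 and in aCF against CF by 0.63 and 0.04, and neither passed in limma. The flow-responsive factor Klf4 fell by 1.08 ± 0.11 in aCF against CF (limma adjusted p = 0.0225), a call lost in 8 of 10 omissions of single arrays (p up to 0.142).

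Genes of capillary lipid handling included Cd36, with the largest fall in EpiSC against CF among all genes of the lists. Of 15 measured, 1 rose and 2 fell in EpiSC against CF, while 0 passed in EpiSC against aCF (in limma with no adjustment, p was under 0.05 for 4 higher and 3 lower, against 12.0% and 11.9% of all rows) and 0 in aCF against CF (3 higher and 8 lower, against 13.6% and 17.6%). Cd36, the fatty acid translocase, fell by 3.40 ± 0.17 in EpiSC against CF (limma adjusted p = 2.76e-05) and differed by -2.45 ± 0.31 in EpiSC against aCF (limma adjusted p = 0.219). Fabp5, which like Fabp4 binds fatty acids, went the other way and rose by 1.18 ± 0.10 in EpiSC against CF (limma adjusted p = 0.00593). Lpl, the lipase that frees fatty acids at the capillary wall, fell by 0.78 ± 0.08 in EpiSC against CF (limma adjusted p = 0.0475), a call lost in 9 of 10 omissions of single arrays (p up to 0.278). Cd36 is also expressed by adipocytes and macrophages, and their part in this result was not tested.

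Genes of arteries, veins and endocardium had 1 of 16 risen and 0 fallen in EpiSC against aCF and the same count in EpiSC against CF. In both it was Efnb2, the ephrin of arterial endothelium that other cells express too, which rose by 1.86 ± 0.11 and 2.63 ± 0.12 (limma adjusted p = 0.000149 and adjusted p = 8.43e-06). In aCF against CF 0 passed in limma (with no adjustment, p was under 0.05 for 3 higher and 3 lower). Of 14 genes of sprouting and inflamed endothelium, 1 rose and 1 fell in aCF against CF. P-selectin, Selp, which endothelium and platelets store with von Willebrand factor, rose by 2.88 ± 0.23 (limma adjusted p = 0.00221), and the scavenging chemokine receptor gene Ackr3, also known from fibroblasts, fell by 1.44 ± 0.10 (limma adjusted p = 0.000507). Apln, also on this list, was the 1 gene of it that passed in the other comparisons. The call of Selp was lost without both aCF4 and aCF5 (0.123). Of 10 lymphatic endothelial genes 0 passed in any comparison in limma. With no adjustment, p was under 0.05 for 4 higher and 1 lower in EpiSC against CF (19.5% and 23.1% of all rows), 4 and 1 in EpiSC against aCF (12.0% and 11.9%), and 2 and 1 in aCF against CF (13.6% and 17.6%).

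The arrays as a whole separated by group, and 51.2% of the variance over named genes lay on the first principal component. Correlations between arrays were 0.749 to 0.85 within CF, 0.545 to 0.669 within EpiSC and 0.229 to 0.546 within aCF. They were taken on centred values, which lowers them for a group near the median of all arrays, so they do not compare the reproducibility of the groups. Along that component CF lay from -34.47 to -29.34 and EpiSC from 23.8 to 36.63. The aCF arrays lay between them, aCF1 to aCF3 between -3.85 and -1.54 and aCF4 (5.93) and aCF5 (4.36) slightly further towards EpiSC. Fibroblast and epicardial identity could be read only as differences. The mean over 12 epicardial and mesothelial genes was 1.47 to 2.07 in EpiSC arrays, -0.62 to 0.192 in aCF and -1.26 to -0.571 in CF. The step from CF to aCF in that mean was not general. The median difference of the 12 genes was 0.153, with 7 above 0 and 5 below, and the largest were those of Cdh3 (4.62) and Dmkn (2.41). The mean over 12 fibroblast genes was -0.056 to 0.013 in CF, 0.072 to 0.118 in aCF and -0.424 to -0.055 in EpiSC. These genes went both ways. In aCF against CF 6 lay higher, led by Col1a2 (1.27), and 6 lower, led by Gsn (-1.13). In EpiSC against CF 9 lay lower, against 44.6% of all named genes, and 3 higher. Only Col1a1 (0.94) and Col1a2 (0.91), both higher, passed there in limma, against 2.91% of all rows. Heart muscle genes followed the endothelial order on average, with a mean over 12 genes of 0.177 to 0.476 in CF, -0.608 to 0.322 in aCF and -0.651 to -0.331 in EpiSC. In aCF4 and aCF5 this mean (-0.608 and -0.573) lay within the range of the EpiSC arrays. Myl7 went the other way and was higher in EpiSC against aCF (2.38) and against CF (1.85), where Nppb was higher too (0.16). The part of heart muscle RNA in the endothelial differences was not tested.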

How the data were processed

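The 15 arrays carry log2 values. Per the series design text, the authors normalized probe signals by quantiles in GeneSpring GX 12.5, combined the probes of a set by its ExonRMA16 method and centred each probe set on its median over all samples. The deposited log2 table has 22206 rows with values from -4.77 to 5.52, and base 2 is inferred from the RMA method. The raw-signal filter of the design text could not be applied to centred values.

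Values were paired with identifiers by an offset of 6900 rows (3 more on chromosomes 10 and 11), which named 13538 of 15303 paired rows through the platform annotation. The deviations of 24 cell cycle genes from group means had a mean pairwise correlation of 0.256 at that offset, -0.0069 as deposited and at most 0.119 at any other of 10972 offsets. On chromosomes 10 and 11 the extra 3 rows gave 3 such genes a correlation of 0.705 with that list, against -0.054 without it and at most 0.418 at other extra offsets. The 8 endothelial genes had a mean pairwise correlation of 0.224 paired and -0.037 as deposited.

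Groups were compared with the lmFit and eBayes functions of limma 3.58.1 (R 4.3.3), 2-sided, on the arrays of the groups compared, with Bonferroni adjustment over 22206 rows, and the fit was tested on simulated data. Replicates are biological per the design text, and 15 arrays limit the precision. Genes and lists were chosen with earlier results of these data known. Beside the 8 genes, those past the threshold in each list, up to 4 by lowest p, and up to 3 others by largest difference could be named, and the 8 genes most alike in deviations. Further genes were named where the genes of a list went both ways. Alternatives were other normalization, adjustment, priors, pairing, a replicate block and omitted arrays.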

Additional observations from a re-analysis of the deposited data

Results flagged for a closer look

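In 2 of 24 sets of 5 arrays, one gene in one group each, 1 array stood far from the others by Dixon's ratio, and chance flags about 1 in 20 such sets. Ptprb was -2.38 in EpiSC2, and the nearest other EpiSC array was at -1.74. Emcn was 1.34 in CF4, and the nearest other CF array was at 0.48.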

How the results depend on the processing

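Of the 8 genes, 1 passed in EpiSC against aCF, 0 in aCF against CF and 1 in EpiSC against CF. A fit of all 3 groups together gave 2, 0 and 3, Benjamini-Hochberg adjustment 3, 4 and 7, and testing the paired rows alone 1, 1 and 2. With identifiers as deposited the counts were 0, 0 and 0. Quantile normalization, centring on named rows and a trended, robust fit gave 1, 0 and 1, as did the replicate block. Omitting single arrays gave 1 to 1, 0 to 1 and 1 to 2, and omitting both aCF4 and aCF5 gave 2 in EpiSC against aCF and 0 in aCF against CF. The call of Ptprb in EpiSC against aCF (adjusted p up to 0.00224) and that of Cdh5 in EpiSC against CF (up to 0.00262) held in every limma fit run with the pairing. Directions turned for Kdr in EpiSC against aCF without EpiSC5 (0.092, omissions from -0.32 to 0.092) and for Vwf in aCF against CF without aCF5 (0.014, omissions from -0.14 to 0.014) and without both aCF4 and aCF5 (0.12). The cause was not tested.

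Same-numbered arrays are not said to share a heart, and their deviations correlated by 0.019 to 0.154 between EpiSC and aCF, where 4 of 5 EpiSC arrays matched their own number best. Over all rows the replicate block gave 41, 94 and 166 calls in place of 148, 340 and 647. Among other genes named as past the threshold, those of the fibroblast list aside, it ended the calls of S1pr1 (0.352), Adgrl4 (0.18), Calcrl (0.313), Fabp5 (0.766), Ackr3 (0.0693), Selp (0.0648) and Thbs1 (0.204). Further calls that the block ended were those of Klf4 (0.083), Angptl1 (1), Lpl (1), Vegfd in aCF against CF (0.305) and in EpiSC against aCF (0.231), and Ppbp (0.105) in EpiSC against CF. Quantile normalization ended those of Apln (0.069) and Vegfd (0.0956) in EpiSC against aCF, Klf4 (0.169) and Lpl (0.132), the trended, robust fit those of Vegfd in EpiSC against aCF (0.342), Klf4 (0.345), Angptl1 (0.0678) and Lpl (0.0742), and the fit of all 3 groups those of Selp (0.055) and Klf4 (0.559). Omitting both aCF4 and aCF5 also ended those of Apln (0.753) and Vegfd (0.851) in EpiSC against aCF, and of Klf4 (0.625) and Thbs1 (0.498) in aCF against CF. Centred values hold no signal over background, so which probe sets were too dim to show a difference is not known here.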
